A study of Mus musculus with 20 samples.

Results

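The hypoxia-inducible factor 1 (HIF-1) target and glycolysis genes were a list of 40 genes, taken by symbol from the 24552 genes of a table of corneal epithelium libraries. The list was made by known function and no expression value was used to pick its genes. Earlier results of these data were known when it was chosen. It held 4 HIF subunits, 5 oxygen sensors, 15 genes of glucose uptake and glycolysis, 3 regulators of glycolysis and 13 other HIF targets. The libraries came from naive wild-type female C57BL/6J mice with no treatment. There were 5 libraries in each of 4 age groups, namely 2 to 3 months (the young group, 2M), 12 to 13 months (12M), 18 to 19 months (18M) and 24 to 25 months (24M). The epithelium was scraped from the cornea, and bulk RNA was primed with oligo-dT and sequenced from the 3′ end. HIF-1α-associated genes were 1 of the sets that the study followed by quantitative PCR, so the question here was whether transcripts of the HIF-1 programme moved with age.

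HIF-1 is a transcription factor made of an oxygen-labile α subunit and a constant partner, ARNT. When oxygen is present, prolyl hydroxylases of the EGLN family modify the α subunit, VHL then marks it for destruction, and HIF1AN blocks its activation domain. When oxygen is short, the α subunit is spared, pairs with ARNT, binds an ACGTG or GCGTG core in promoters and raises glucose transport, glycolysis, pyruvate dehydrogenase kinase, VEGFA and mitophagy genes. Egln3 and Egln1 are themselves HIF targets. The cornea has no vessels, takes oxygen from the air through the tear film, and its epithelium is strongly glycolytic. Because the α subunit is set mostly at the protein level, which was not measured, Hif1a mRNA reports its transcript only.

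Values are normalized counts, that is reads on a gene divided by the size factor of its library, and differences are log2 fold changes of normalized count plus 1. The libraries held 6699383 to 10762360 reads on genes, with a median of 8731334. A gene was tested where its mean over the 20 libraries was at least 10 normalized counts, which 11288 genes and 35 of the 40 members met. A gene was called where the limma p, adjusted by Benjamini-Hochberg over all 11288 genes, was at most 0.05 and the change at least 1.2-fold. Young replicate 1 and 18M replicate 2 stood apart. Their median correlations with the other libraries, 0.910 and 0.904, were the lowest of the 20, of which the highest was 0.943. The 10 most abundant genes took 34.9% and 33.2% of their reads, against 25.6% to 30.6% in the others. Gene positions are those of RefSeq on GRCm38. The corneal epithelium markers Krt12 and Pax6 were present, with means of 244427 and 4847 normalized counts over the 20 libraries. Of 9 listed markers 8 met the filter, and Krt24 did not, with 29 reads in all and 0 in 17 libraries. The summed level of the 9, to which Krt12 gave the most, ran from 458542 to 584162 in the young group. At 24M it ran from 500556 to 540983. Per the study's methods each library is 1 mouse, with the epithelium of its 2 corneas combined, so the spread within an age is that between mice. In bulk RNA, fewer cells of a type and less RNA per cell cannot be told apart.

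The promoters of 4 members are shown because they carry the HIF core motif and belong to genes with different outcomes below. These are the 250 bases before an annotated start in RefSeq on GRCm38.p6, written 5′ to 3′ on the strand of the gene. Capitals mark ACGTG or its reverse complement CACGT, and a CACGTG counts as 2 overlapping matches. Egln3 (chr12:54203875-54204124, minus strand) has 1 match and was the member that passed the threshold. Egln1 (chr8:124949255-124949504, minus strand) has 1 match, and Bnip3 (chr7:138909507-138909756, minus strand) has 1 CACGTG. Ldha (chr7:46845554-46845803, plus strand) has 5 matches by this count. GCGTG, the other form of the core, is not marked, so the counts do not rank these 4 genes by all cores.
Egln3: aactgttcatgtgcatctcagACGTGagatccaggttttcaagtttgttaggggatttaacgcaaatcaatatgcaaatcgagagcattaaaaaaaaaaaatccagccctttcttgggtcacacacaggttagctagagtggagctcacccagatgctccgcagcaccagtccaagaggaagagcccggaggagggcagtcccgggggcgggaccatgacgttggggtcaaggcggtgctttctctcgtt
Egln1: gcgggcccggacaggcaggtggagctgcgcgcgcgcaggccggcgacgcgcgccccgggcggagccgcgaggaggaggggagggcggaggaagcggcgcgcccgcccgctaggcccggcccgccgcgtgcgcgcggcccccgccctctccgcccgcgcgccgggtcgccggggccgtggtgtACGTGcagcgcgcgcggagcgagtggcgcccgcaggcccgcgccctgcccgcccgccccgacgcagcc
Bnip3: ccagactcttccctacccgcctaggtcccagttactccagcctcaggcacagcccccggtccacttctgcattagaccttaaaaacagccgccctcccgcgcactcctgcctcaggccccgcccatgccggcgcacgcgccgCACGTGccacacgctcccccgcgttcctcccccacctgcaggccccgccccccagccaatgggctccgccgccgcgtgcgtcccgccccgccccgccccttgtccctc
Ldha: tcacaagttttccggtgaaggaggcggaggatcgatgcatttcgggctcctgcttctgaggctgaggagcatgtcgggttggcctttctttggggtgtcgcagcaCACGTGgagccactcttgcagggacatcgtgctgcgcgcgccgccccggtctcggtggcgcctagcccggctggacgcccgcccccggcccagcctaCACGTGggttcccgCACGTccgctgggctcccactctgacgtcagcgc

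Of the 40 members, 37 had a promoter entry of 300 bases (250 before to 50 after the start), and Epas1, Bnip3l and Ndrg1 had none. ACGTG on either strand was in a promoter of 24 of these 37 members (64.9%), against 21.8% of the 27025 genes with an entry. GCGTG, the other form of the core, was in 26 of 37 (70.3%) against 35.2%, and CACGTG in 5 of 37 (13.5%) against 8.09%. Members were picked as HIF and glycolysis genes, so the larger share describes the list. Matches are letters in a window, not sites shown to be bound.

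Across ages, 1 of the 35 members tested was called. Egln3 rose at 24M, and no member was called lower in any comparison. The count was 0 of 35 at 12M, 0 of 35 at 18M and 1 of 35 at 24M, each against the young group, where 0.532%, 0.673% and 0.78% of all genes tested were called. Between the older groups the count was 0 of 35 for 18M against 12M, for 24M against 12M and for 24M against 18M, where 0.00886%, 0.195% and 0% of all genes were called. With the 15 older libraries taken as 1 group against the young group, 1 of 35 was called, again Egln3, against 1.01% of all genes. A voom fit of limma on the reads gave the same 7 counts.

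The unadjusted p was under 0.05 for 4 members at 12M (2 higher and 2 lower), for 5 at 18M (all higher) and for 9 at 24M (all higher). The share of all genes with such a p was 9.56% at 12M, 7.18% at 18M and 9.97% at 24M, where 4.93% of all genes were past it and higher. The 9 members at 24M were Egln3, Aldoc, Ddit4, Bnip3, P4ha1, Egln1, Pdk1, Vhl and Pfkp, and 8 of them missed the adjusted threshold. The log2 fold change was above 0 for 27 of 35 members at 24M and at 18M, and for 18 of 35 at 12M. Among all genes tested it was above 0 for 5726 of 11288 at 24M. The median change of the members was 0.25 at 24M, 0.20 at 18M and 0.020 at 12M on the log2 scale. Over all genes the median was 0.0052 at 24M, -0.0011 at 18M and -0.010 at 12M. These 3 comparisons share the 5 young libraries, so their values are not independent. Against the 12M group, 33 of 35 members were above 0 at 24M with a median of 0.23, beside 5896 of 11288 genes (52.2%) and a median of 0.020 over all genes, and 9 had an unadjusted p under 0.05 (8 higher and 1 lower) against 14.7% of all genes. That comparison shares its 24M libraries with the one above. Such a p was found for 5 members in 18M against 12M (4 higher and 1 lower) and for 2 in 24M against 18M (both higher), against 7.43% and 5.31% of all genes.

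**Figure D1:**
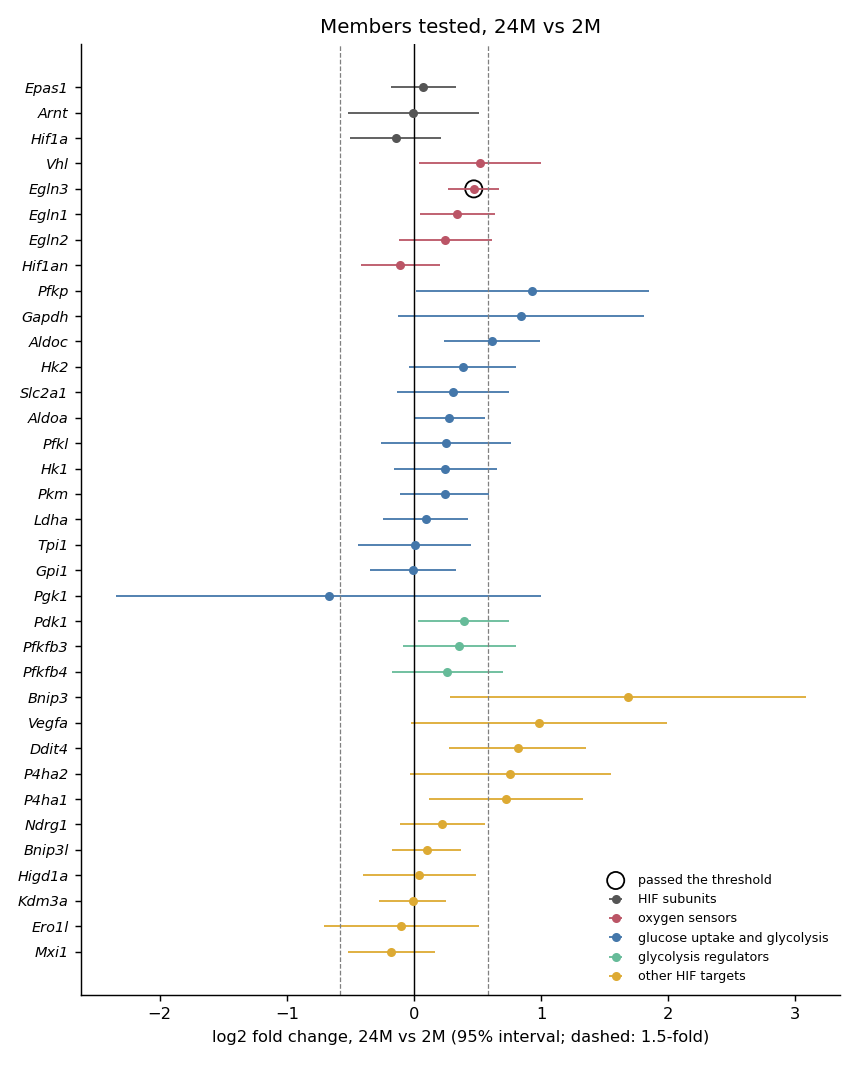
Log2 fold change between the 24M and 2M groups with its 95% interval for the 35 members tested, in order of role. The ring marks Egln3, the 1 member that passed the adjusted threshold, and dashed lines mark 1.5-fold. Of the 35 points 27 lie above 0, and 13 intervals lie wholly within 1.5-fold of no change.

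The intervals show what could be resolved. At 24M, the 95% interval of 13 of the 35 members lay within 1.5-fold of no change in both directions, and that of 26 excluded a 2-fold change. The other 5 members had a mean under 10 normalized counts, were left out of this fit and are given by their reads.

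Among the HIF subunits none was called in any comparison. Hif1a (chr12:73901324-73947554), which encodes the oxygen-labile HIF-1α, had 648, 471, 462, 665 and 447 normalized counts in the 5 young libraries. At 12M the values were 406, 475, 512, 345 and 617, at 18M 482, 368, 495, 374 and 597 and at 24M 648, 399, 459, 473 and 454. All 4 groups overlapped and the 24M group sat within the young range but for 1 lower library. The 24M change was -0.14 (95% interval -0.50 to 0.21, limma adjusted p = 0.837), an interval within 1.5-fold of no change.

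Epas1 (chr17:86753864-86833410), which encodes HIF-2α, the paralogous α subunit, had 3376, 5449.9, 4175, 4714 and 5233 normalized counts in the 5 young libraries and 4323, 4924, 4113, 5357 and 5185 at 24M. The 12M values were 5069, 4931, 5274, 4821 and 3562 and the 18M values 4454, 5130.2, 5297, 5295 and 5356. The groups overlapped throughout, and the 24M change was 0.072 (95% interval -0.18 to 0.33, limma adjusted p = 0.907). Arnt (chr3:95434367-95497240), the shared partner of the α subunits, had 160.0, 233, 202, 188 and 218 in the young group, 196, 171, 175, 180.4 and 76.5 at 12M, 145, 242, 238, 240.1 and 219 at 18M and 209, 146, 126, 325 and 244 at 24M. The 24M libraries spread on both sides of the young ones, and the change was -0.005 (95% interval -0.52 to 0.51, limma adjusted p = 0.999). The sign of the 24M change turned with single libraries for both Epas1 and Arnt. Hif3a, a further α subunit, had 7 reads in all, every one in 1 young library, and 0 reads in the other 19 libraries, where a count of 0 allows up to 3 reads each.

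The oxygen sensors held the member that changed. Egln3 (chr12:54178981-54203874), the prolyl hydroxylase PHD3, had 5537, 6375, 6789.9, 7658 and 7345 normalized counts in the young libraries and 7072, 7461, 8540.4, 7856 and 8189 at 12M. The 18M values were 9585, 8204, 8854, 8002 and 8498 and the 24M values 9635, 9727, 10068, 8672 and 8406. Every 18M and 24M library lay above every young library, whereas the 12M and young groups overlapped. The group means were 6741 ± 835, 7824 ± 579.8, 8629 ± 624 and 9302 ± 721 (SD, n = 5 each) in order of age.

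At 24M Egln3 was 1.39-fold the young level, a log2 change of 0.47 ± 0.10 (SE; 95% interval 0.27 to 0.67; limma adjusted p = 0.0125). The two-sided exact permutation test gave p = 0.00794, the smallest that all splits of these libraries, 5 against 5, allow. At 18M the change was 0.36 (95% interval 0.16 to 0.56, limma adjusted p = 0.107) and at 12M it was 0.22 (95% interval 0.02 to 0.42, limma adjusted p = 0.461), neither past the threshold. Between 24M and 12M it was 0.25 (limma adjusted p = 0.243), between 24M and 18M 0.11 (limma adjusted p = 0.945) and between 18M and 12M 0.14 (limma adjusted p = 0.747), none past the threshold. The two-sided exact permutation p, unadjusted, was 0.0159 for 24M against 12M, where 4 of 5 libraries lay above all 12M ones, 0.151 for 24M against 18M and 0.0714 for 18M against 12M. Over the 15 older libraries the change was 0.35 (95% interval 0.17 to 0.53, limma adjusted p = 0.0409).

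The 24M call was lost without 24M replicate 3, where the change was 0.44 and the limma adjusted p 0.0522. It was also lost when only the young and 24M libraries were fitted, with a limma adjusted p of 0.0704. Without young replicate 1, the library that stood apart, Egln3 was still called at 24M, with a change of 0.40 (limma adjusted p = 0.0386), but it was not called over the 15 older libraries (limma adjusted p = 0.183). Without 18M replicate 2 the 24M call held (limma adjusted p = 0.0145).

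**Figure D2:**
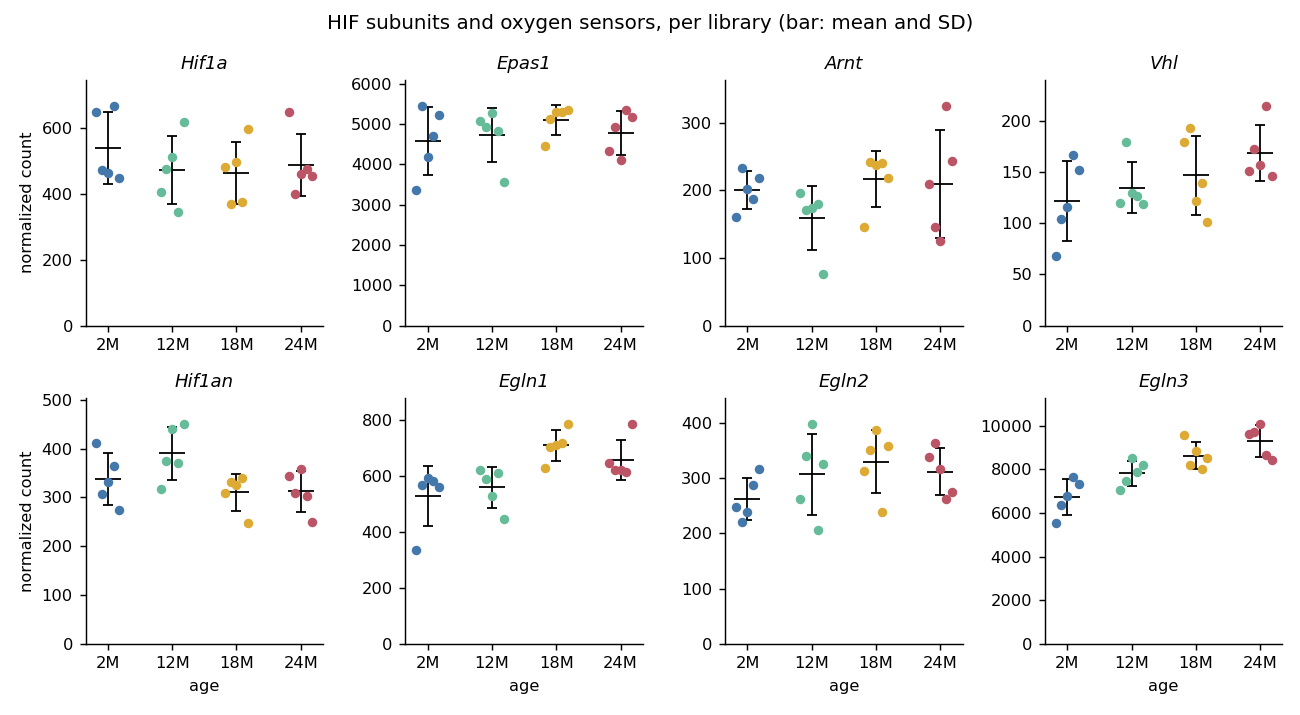
Normalized count of 8 HIF subunit and oxygen sensor genes in each of the 20 libraries by age, with the mean and SD of 5 libraries as bars and every axis from 0. The 18M and 24M points of Egln1 and Egln3 lie above all young points, while those of Hif1a, Epas1 and Arnt overlap them.

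Egln1 (chr8:124908587-124949254), the hydroxylase PHD2, had 337, 566, 592, 583 and 559 normalized counts in young libraries, 621, 588, 529, 610.3 and 446 at 12M, 627, 703, 709.8, 718 and 783 at 18M and 646, 619.6, 622, 614 and 784 at 24M. Every 18M and 24M library was above every young library, but 1 young library was far below the rest. The change was 0.45 at 18M (95% interval 0.16 to 0.75, limma adjusted p = 0.269) and 0.34 at 24M (95% interval 0.045 to 0.64, limma adjusted p = 0.409), and neither passed the threshold. Without that library, young replicate 1, the 24M change was 0.19 (limma adjusted p = 0.813). At 24M the groups did not overlap for 3 of 35 members (Egln1, Egln3 and Bnip3), against 2.81% of all genes, and at 18M for 2 of 35 (Egln1 and Egln3), against 2.05%.

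Vhl (chr6:113623994-113631634), the substrate receptor of the ubiquitin ligase that removes the α subunits, had 68.0, 104, 116, 166 and 152 normalized counts in the 5 young libraries and 151, 172, 157, 214 and 146 at 24M. The 12M values were 119, 179, 129.6, 126 and 119 and the 18M values 179, 192, 121, 139 and 102. The young and 24M groups overlapped, and the change was 0.52 (95% interval 0.04 to 1.00, limma adjusted p = 0.448). Without young replicate 1 it was 0.33.

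Egln2 (chr7:27158658-27166802), the hydroxylase PHD1, had 248, 221, 239, 287 and 316 normalized counts in young libraries, 263, 341, 398, 205 and 326 at 12M, 313, 351, 387, 239 and 358 at 18M and 338, 364, 316, 263 and 275 at 24M. Its libraries overlapped at all ages, with a 24M change of 0.25 (95% interval -0.11 to 0.61, limma adjusted p = 0.682). Hif1an (chr19:44562854-44576274), the asparagine hydroxylase, had 412, 307, 332, 364 and 273 in the young group, 317, 375, 439, 371 and 449.8 at 12M, 309, 331, 326, 339 and 247 at 18M and 343, 308, 359, 304 and 249.4 at 24M. Its 24M change was -0.11 (95% interval -0.42 to 0.20, limma adjusted p = 0.867), and it was the 1 gene of 5 in this role below 0. The role counts Vhl with the hydroxylases. The median change of the 5 genes at 24M was 0.34, and it was 0.23 without young replicate 1.

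Of the 15 genes of glucose uptake and glycolysis, 13 were tested and none was called in any comparison. Their median change was -0.067 at 12M, 0.21 at 18M and 0.25 at 24M, with 11 of 13 above 0 at 24M. Slc2a1 (chr4:119108745-119137330), which encodes the glucose transporter GLUT1, had 125, 183, 230.1, 191 and 107 normalized counts in the 5 young libraries and 167, 88.1, 111, 128 and 99.4 at 12M. The 18M values were 209.8, 179, 189, 157 and 208 and the 24M values 219, 224, 149, 211 and 203. At 12M 2 libraries were below all young libraries, and 4 of the 5 24M libraries were above all of the 12M ones. The change from the young group was -0.47 at 12M (limma adjusted p = 0.483), 0.22 at 18M (limma adjusted p = 0.935) and 0.31 at 24M (95% interval -0.13 to 0.75, limma adjusted p = 0.678). Between 24M and 12M it was 0.78 (95% interval 0.33 to 1.22, limma adjusted p = 0.12).

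Ldha (chr7:46842274-46855627), the lactate dehydrogenase A subunit, which turns pyruvate into lactate, also reached below the young range at 12M. Its normalized counts were 932, 1307, 1438, 1239.7 and 914 in the young group, 1271, 687, 1111, 704 and 751 at 12M, 1250.1, 1113, 1102, 1059.8 and 1165 at 18M and 1132, 1173, 987, 1383 and 1511 at 24M. At 12M 3 libraries were below all young ones, and the 18M libraries all lay within the young range. The change was -0.39 at 12M (limma adjusted p = 0.414), -0.014 at 18M (limma adjusted p = 0.996) and 0.093 at 24M (95% interval -0.24 to 0.43, limma adjusted p = 0.907). The 24M interval lay within 1.5-fold of no change. The promoter printed above holds 5 matches to ACGTG or CACGT, with each CACGTG counted as 2. Another Ldha promoter entry holds 0. A link between motif matches and change with age was not tested.

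Pfkp (chr13:6579874-6649060), the platelet-type subunit of phosphofructokinase, had 82.2, 33.0, 29.2, 22.3 and 26.6 normalized counts in young libraries, 20.2, 40.8, 12.9, 42.1 and 37.0 at 12M, 56.1, 80.9, 25.4, 23.3 and 58.0 at 18M and 51.7, 87.8, 146, 42.6 and 45.2 at 24M. One young library was well above the other 4 and within the 24M range. The 24M change was 0.93 (95% interval 0.012 to 1.85, limma adjusted p = 0.494). In the annotation used here (GENCODE vM21), every 75-base window in the last 500 bases of its transcript also belonged to another gene at the same place, so its reads may not all have been counted to it.

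Gapdh (chr6:125161852-125166467), glyceraldehyde-3-phosphate dehydrogenase, had 15.3, 145, 201, 113 and 136 normalized counts in young libraries, 159.9, 63.1, 104, 154 and 34.4 at 12M, 152, 142, 159.6, 152 and 135 at 18M and 152, 129, 100.3, 249.7 and 272 at 24M. Young replicate 1 held far less than any other young library, and the groups overlapped. The 24M change was 0.84 (95% interval -0.13 to 1.81, limma adjusted p = 0.582), or 0.21 without that library. The last 500 bases of its transcript shared 84.0% of their 75-base windows, the read length, with 78 other annotated genes, of which 75 are pseudogenes. Its level is therefore uncertain.

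Aldoc (chr11:78323073-78327781), aldolase C, is named after its values were seen, since it had the smallest unadjusted p of this group. Its normalized counts were 342, 375, 239, 331 and 417 in the young group, 401, 412, 426, 580.2 and 519.9 at 12M, 418, 609, 500.2, 366 and 783 at 18M and 529, 583, 607, 466 and 408 at 24M. At 24M 4 of 5 libraries lay above every young library. The change was 0.46 at 12M (limma adjusted p = 0.374), 0.62 at 18M (limma adjusted p = 0.187) and 0.61 at 24M (95% interval 0.24 to 0.99, limma adjusted p = 0.144).

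The other tested glycolysis genes were Hk1, Hk2, Gpi1, Pfkl, Aldoa, Tpi1, Pgk1 and Pkm, which encode hexokinases, glucose-6-phosphate isomerase, the liver phosphofructokinase subunit, aldolase A, triosephosphate isomerase, phosphoglycerate kinase and muscle pyruvate kinase. Their 24M changes ran from -0.67 for Pgk1 to 0.38 for Hk2, and every 95% interval held 0. Pgk1 had a mean of 34.6 ± 24.8 normalized counts in the 5 young libraries and 25.9 ± 16.8 at 24M (SD, n = 5 each), so its interval was wide (-2.35 to 1.00). Pkm was narrower, with 1119 ± 301 in the young group and 1297 ± 167 at 24M (SD, n = 5 each) and a change of 0.24 (95% interval -0.11 to 0.59). Eno1 and Pgam1, the enzymes between 3-phosphoglycerate and phosphoenolpyruvate, were not tested. Eno1, an enolase that glycolytic cells use, was listed with 23 reads over all 20 libraries and 0 in 15 of them. Of its 75-base windows 62.0% were shared with 2 other annotated genes. Eno1b, a separate gene entry that is not a member, had 1119 reads in all, with 12 to 145 in each library. Whether those reads came from Eno1 transcripts was not tested. Pgam1 had 125 reads in all and shared no 75-base window. It had 49 reads over the 24M libraries and 16 over the 18M libraries (two-sided exact permutation p = 0.0397, unadjusted), and 37 over the young ones (0.397 for 24M against young, by the same exact test). Whether the table's values reflect the levels of these transcripts is uncertain.

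**Figure D3:**
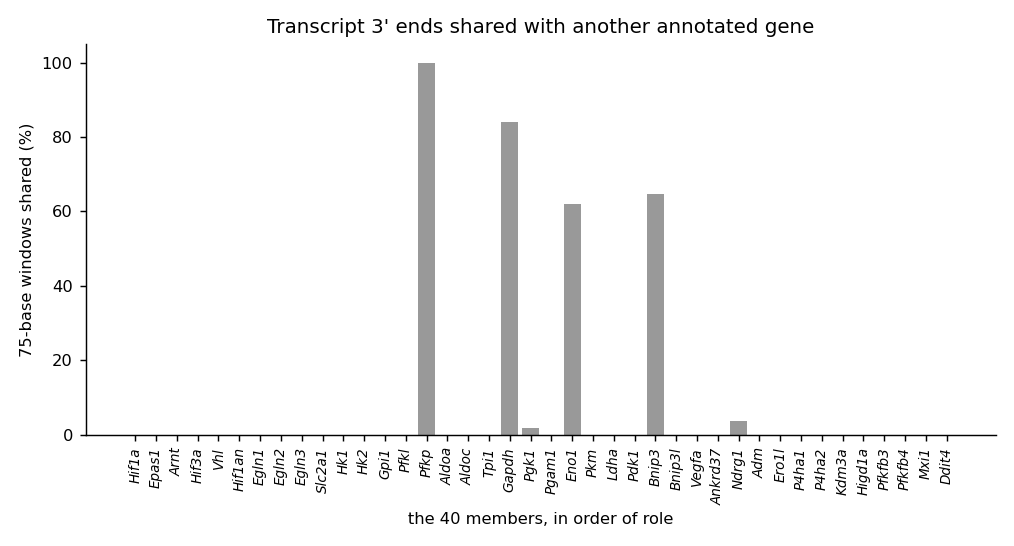
Share of the 75-base windows in the last 500 bases of each member's transcript that also occur in another annotated gene, in percent, for the 40 members in order of role. Pfkp, Gapdh, Bnip3 and Eno1 have tall bars, Ndrg1 and Pgk1 low ones, and 34 members share none.

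The 3 regulators of glycolysis were tested and none was called. Pdk1 (chr2:71873215-71903858) encodes a pyruvate dehydrogenase kinase. It had 249.9, 503, 354, 394 and 429.7 normalized counts in young libraries and 584, 354, 407, 449 and 339 at 12M. The 18M values were 444, 382, 373, 545 and 427 and the 24M values 402, 541, 478, 587 and 481. The lowest value was in young replicate 1, and the groups overlapped. The 24M change was 0.39 (95% interval 0.031 to 0.75, limma adjusted p = 0.447), or 0.24 without that library.

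Pfkfb3 (chr2:11471430-11554071), which makes the activator of phosphofructokinase, had 176, 269.8, 209, 322 and 252.3 normalized counts in young libraries, 239, 271, 331, 206 and 282 at 12M, 307, 337, 263, 331 and 391 at 18M and 312, 392, 492, 269 and 173 at 24M. The 24M libraries held both the highest and the lowest value of the 20, and the change was 0.36 (95% interval -0.085 to 0.80, limma adjusted p = 0.617). Pfkfb4, its paralogue, had a mean of 199 ± 45.2 in the young group and 235 ± 17.6 at 24M (SD, n = 5 each), a change of 0.26 (limma adjusted p = 0.735).

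Of the 13 other HIF targets, 11 were tested and none was called. Their median change was -0.048 at 12M, 0.18 at 18M and 0.22 at 24M, and 8 of 11 were above 0 at 24M. Bnip3 (chr7:138890836-138909506), a mitophagy receptor, rested on 1 to 70 reads a library. Its normalized counts were 15.3, 16.5, 15.5, 1.06 and 18.0 in the young group, 7.35, 9.21, 5.36, 26.1 and 14.02 at 12M, 29.3, 3.52, 15.9, 15.2 and 67.7 at 18M and 24.4, 56.1, 60.5, 20.01 and 32.9 at 24M. Every 24M library was above every young library, though one 24M library was close to the highest young one. The change was 1.69 (95% interval 0.29 to 3.08, limma adjusted p = 0.376; two-sided exact permutation p = 0.00794). It was 1.07 without young replicate 4, which held 1 read. Of its 75-base windows 64.8% were shared, most with a gene at the same place.

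Vegfa (chr17:46016993-46032377), the vascular growth factor, had 60.3, 12.7, 39.3, 12.7 and 24.7 normalized counts in young libraries, 12.9, 46.0, 12.9, 33.1 and 33.1 at 12M, 35.4, 22.3, 28.6, 23.3 and 35.8 at 18M and 76.1, 78.1, 77.6, 39.2 and 17.9 at 24M. At 24M 3 libraries were above all young libraries and 2 were among them. The change was 0.99 (95% interval -0.02 to 1.99, limma adjusted p = 0.512; two-sided exact permutation p = 0.159). Endothelial transcripts were near 0, with 5 vessel genes summing to 14.8 to 48.2 normalized counts in the 5 young libraries and 8.78 to 33.9 at 24M.

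P4ha1 and Ddit4 are named after their values were seen, for an unadjusted p under 0.05 at 24M. P4ha1 (chr10:59323197-59373304), a collagen prolyl 4-hydroxylase subunit, had 44.9, 104, 91.3, 94.3 and 149.9 normalized counts in young libraries, 74.5, 69.7, 111, 64.1 and 79.0 at 12M, 89.0, 73.9, 72.3, 129 and 211 at 18M and 126, 171, 131, 175 and 154 at 24M. Its change was 0.72 (95% interval 0.12 to 1.33, limma adjusted p = 0.384), or 0.47 without young replicate 1. Ddit4 (chr10:59949675-59951770), the mTORC1 inhibitor REDD1, had 76.7, 174, 151, 213 and 85.4 in the young group, 191, 208, 159.6, 141 and 115 at 12M, 199, 262, 222, 184 and 140.2 at 18M and 268, 235, 346, 158 and 182 at 24M. Its change was 0.81 (95% interval 0.27 to 1.36, limma adjusted p = 0.201), and the young and 24M groups overlapped for both genes.

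**Figure D4:**
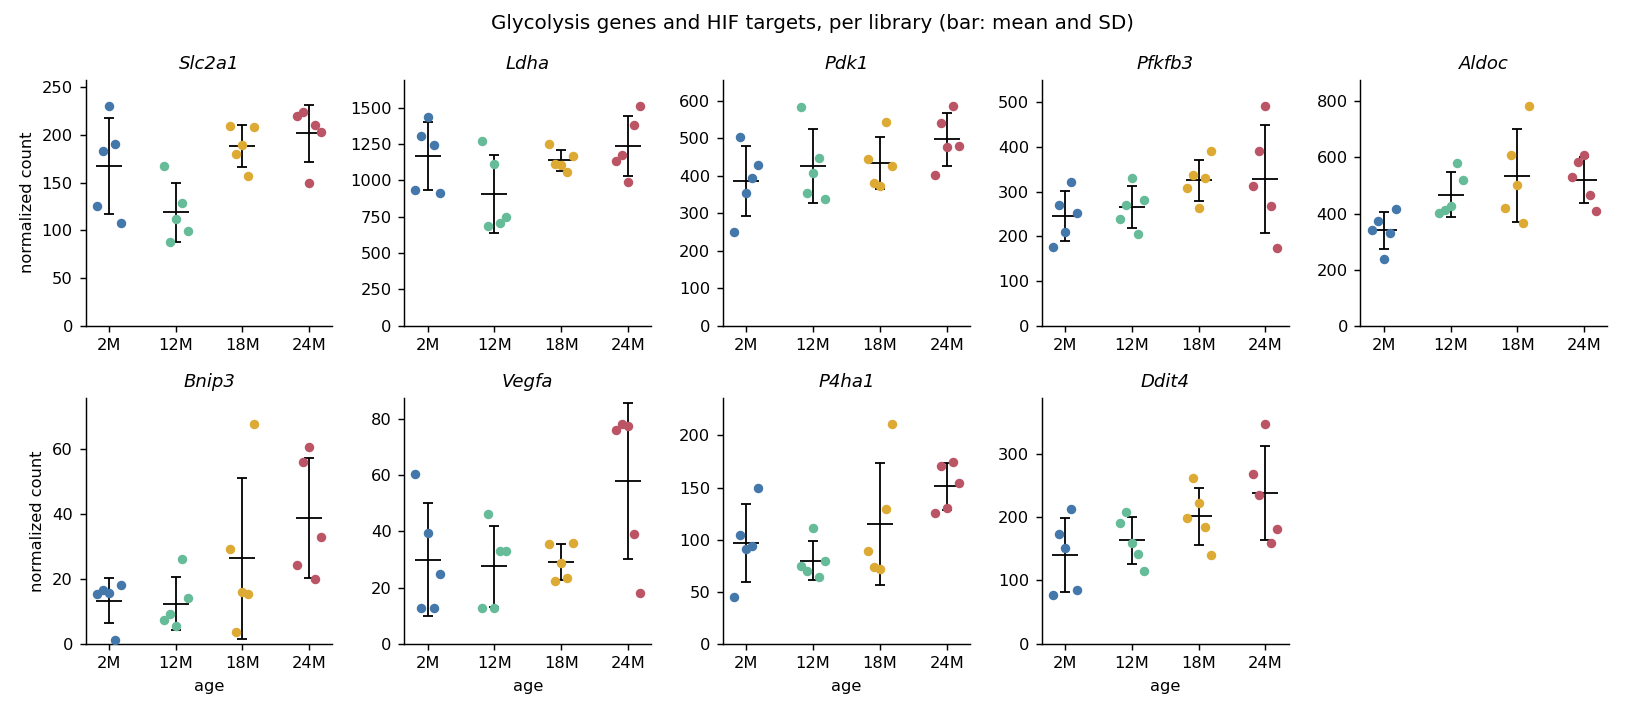
Normalized count of 9 glycolysis genes and HIF targets in each of the 20 libraries by age, with the mean and SD of 5 libraries as bars and every axis from 0. The 12M points of Slc2a1 and Ldha reach below the young range and the 18M points lie within it, while all 24M points of Bnip3 lie above the young ones.

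The other 7 tested genes of this group were Bnip3l, Ndrg1, Ero1l, P4ha2, Kdm3a, Higd1a and Mxi1. Their 24M changes ran from -0.18 for Mxi1, a MAX-binding repressor, to 0.76 for P4ha2, a further collagen prolyl 4-hydroxylase subunit. Bnip3l and Kdm3a, a mitophagy receptor and a histone demethylase, had intervals within 1.5-fold of no change, at -0.17 to 0.37 and -0.27 to 0.25. Ankrd37 and Adm were not tested. Ankrd37, a small HIF target, had 11 reads over the 5 young libraries, all in 1 of them, and 80 over the 5 24M libraries, each with at least 1. Its normalized counts were 0, 8.24, 0, 0 and 0 in young mice and 8.78, 22.8, 24.6, 13.9 and 0.941 at 24M, so that 4 of 5 24M libraries lay above all young ones (two-sided exact permutation p = 0.0159, unadjusted). The 12M values were 3.68, 0, 0, 16.0 and 0 and the 18M values 1.22, 1.17, 7.94, 0 and 45.4, both of which overlapped the young group. Adm, the vasodilator adrenomedullin, had 33 and 22.

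Averaged over the 35 tested members, each library's log2 value relative to the young mean ran from -0.042 to 0.028 in the young group, from -0.11 to 0.11 at 12M, from 0.060 to 0.35 at 18M and from 0.19 to 0.49 at 24M. The 18M and 24M libraries did not overlap the young ones in this average, and the 12M libraries did. The HIF subunits ran from -0.15 to 0.11 in the young group and from -0.33 to 0.26 at 24M, which overlapped. The other targets ran from -0.17 to 0.11 and from 0.14 to 0.81, which did not overlap. They include Bnip3, which changed by 1.69 on 1 to 70 reads a library, with 1 read in young replicate 4. Whether the other targets stay apart without Bnip3 was not tested. In the order young then 24M, the oxygen sensors ran from -0.28 to 0.23 and from 0.18 to 0.35. The glycolysis genes ran from -0.15 to 0.10 and from 0.090 to 0.47. The glycolysis regulators ran from -0.44 to 0.23 and from 0.075 to 0.57. In each of these roles the young and 24M libraries overlapped. This average describes the list and carries no test, since the members were chosen as a list with earlier results of these data known.

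**Figure D5:**
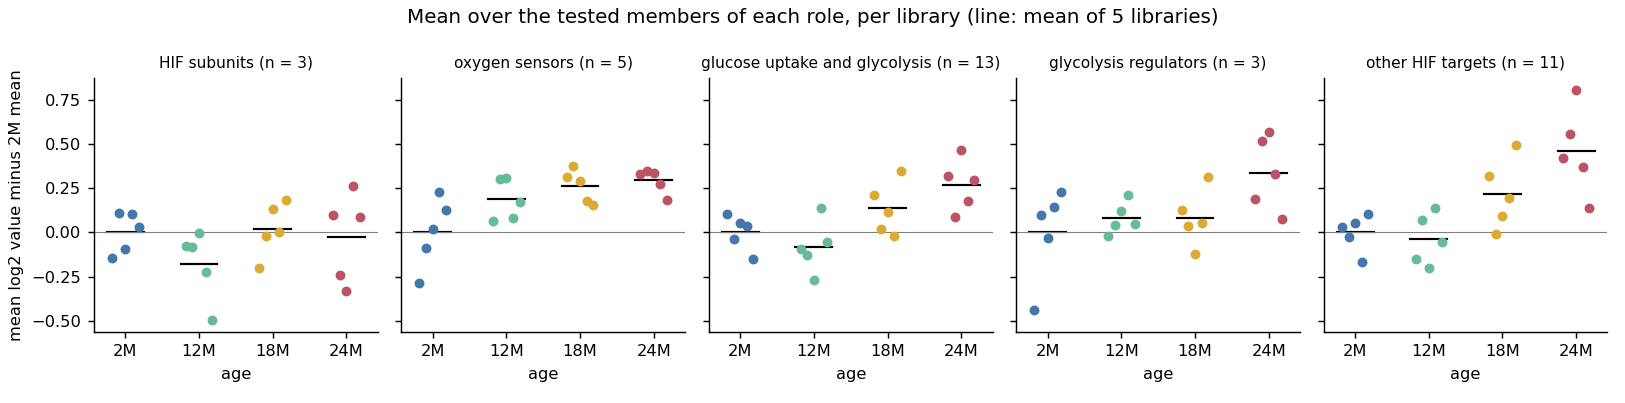
Mean log2 value of the tested members of each role, minus the mean of the 2M libraries, for each of the 20 libraries by age, with lines at the mean of 5 libraries. The HIF subunits spread on both sides of 0 at 24M, whereas all 24M points of the other 4 roles lie above 0, the young mean. The 24M points of the other HIF targets, a mean that includes the low-count gene Bnip3, lie above all young points. Those of the oxygen sensors, the glycolysis genes and the glycolysis regulators overlap the young points.

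Beyond the members, 65 further HIF pathway and glucose genes were listed and 45 tested. At 24M 2 of 45 were called higher and none lower, where 0.78% of all genes tested were called in either direction. Tfrc, the transferrin receptor, rose from 69.6 ± 24.7 to 261 ± 136 normalized counts (SD, n = 5 each), a change of 1.83 (95% interval 1.21 to 2.45, limma adjusted p = 0.000814). Vldlr, a lipoprotein receptor induced by HIF, rose from 65.8 ± 26.2 to 160.0 ± 34.6, a change of 1.33 (95% interval 0.73 to 1.93, limma adjusted p = 0.0208). Vldlr was also called at 12M (1.29, limma adjusted p = 0.0346) and at 18M (1.45, limma adjusted p = 0.00833). The median change of the 45 was 0.0081, and 23 were above 0.

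The 6 genes that the study took to quantitative PCR as HIF-1α associated are not members. In these libraries at 24M, Sprr1a, Cdkn2a and Ulk1 were called higher and Serpinf1 and Igfbp2 lower, where 0.78% of all genes tested were called. Cdkn2a, the cell-cycle inhibitor p16, changed by 3.45 (limma adjusted p = 0.000785), Sprr1a, a cornified envelope gene, by 1.54 (limma adjusted p = 0.00352) and Ulk1, an autophagy kinase, by 0.87 (limma adjusted p = 0.0295). Serpinf1, an antiangiogenic secreted factor, changed by -3.65 (limma adjusted p = 0.03) and Igfbp2, an insulin-like growth factor binding protein, by -1.70 (limma adjusted p = 0.0123). Cdkn1a, the inhibitor p21, had a value of 0.14 and was not called. That list was chosen on these samples, so these values are not independent evidence of its direction. The study's quantitative PCR used other mice of both sexes. The paper reports Sprr1a, Cdkn2a and Ulk1 higher and Serpinf1 lower in aged females. In aged males it saw no rise of Sprr1a, Cdkn1a or Ulk1, but a larger rise of Cdkn2a than in aged females. It reports Serpinf1 and Igfbp2 lower with age in both sexes. From a meta-analysis of the age comparisons, the paper also names HIF-1α as a key altered transcription factor.

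Other values moved with age beside these results. Stromal keratocyte genes were summed over 6 genes, without Aldh3a1 that the epithelium also makes. The sum was 1637 to 4374 in the young group, 662 to 1500.1 at 12M, 642 to 1316 at 18M and 318 to 1018 at 24M. Of the 7 listed genes 3 were called lower at 24M, where 0.78% of all genes tested were called in either direction. The sum of 6 immune genes ran from 1133 to 1998 in the young group and from 766 to 1426 at 24M, with none called. Krt4, a conjunctival keratin and the 1 called of 4 such genes tested, changed by -1.54 at 24M (limma adjusted p = 2.17e-06). The sum of 6 early stress genes ran from 2833 to 5879 in the young group and from 4728 to 5346 at 24M, and the sum of 13 clock genes from 4437 to 5402 and from 4685 to 5472, with none of either called. No listed keratocyte or immune gene was at 0 in every library. The part of these values in the changes of Egln3 and the other members was not tested.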

How the data were processed

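Bulk 3′ RNA-seq libraries of scraped corneal epithelium, 5 per age group, were analysed. The authors trimmed reads with cutadapt, checked them with FastQC, aligned 75-base single reads with STAR to GRCm38 and counted genes with HTSeq (versions not given in the sources used here). The deposited table holds other values than raw counts, namely the log2 of 1 plus the count divided by a relative log expression size factor of the library. Whole reads were recovered for 100% of values from these log2 values, with size factors of 0.760 to 1.334, so the filter at a mean of 10 equals 7.60 to 13.3 reads. The deposited log2 values were fitted with limma 3.58.1 in R 4.3.3 (trend, 4 ages in 1 fit, or 2 groups for old against young), and p-values were adjusted by Benjamini-Hochberg over all genes tested. The fit was tested on simulated data. Single genes were also compared by a two-sided exact permutation test.

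The members and lists were chosen with earlier results of these data known. Genes were named where they were called, were HIF subunits or oxygen sensors, were the 2 of each other role with the largest 24M change, or were Slc2a1, Ldha, Pdk1, Vegfa, Bnip3 or Egln3. Transcript ends were compared with GENCODE vM21 transcripts, since the annotation used for counting was not given. Intervals cover the spread between libraries only. Alternatives were no filter, a filter at 50, pseudocounts of 0.1 and 10, quantile normalization, voom on recovered reads, only the groups compared, the replicate block and each library left out in turn.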

Additional observations from a re-analysis of the deposited data

Results flagged for a closer look

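In 10 of 64 groups of 5 libraries, over the 16 named members that were tested, 1 library lay far from the other 4. The measure is the gap to the nearest library divided by the whole range. For independent, normally distributed values, it passes 0.71 in about 1 of 20 groups. The groups here reuse the same libraries and some genes have few reads, so that rate is not a benchmark for the 10 of 64. No explanation was tested.

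Young replicate 1 gave 2 of the 10, Egln1 lowest (0.871) and Pfkp highest (0.821), and young replicate 4 gave Bnip3 lowest (0.842). 12M replicate 5 held the lowest Epas1 (0.736) and the lowest Arnt (0.792), and 18M replicate 1 the lowest Epas1 (0.749) and the lowest Arnt (0.761). Vhl was highest in 12M replicate 2 (0.816). At 24M, Egln1 was highest in replicate 5 (0.811) and Slc2a1 lowest in replicate 3 (0.718).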

How the results depend on the processing

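Of 898 values recomputed under the alternatives, 856 kept their direction and their side of the threshold or moved by less than the spread. No member was called in the 12M, 18M and between-older-group comparisons under any alternative. For 24M against young, 0 members were called with only the groups compared. With single libraries left out the count ran from 0 to 1, and it was 0 without 24M replicate 3. Over the older libraries as 1 group, 0 members were called with no filter, with quantile normalization and with the replicate block. There it ran from 0 to 2 with single libraries left out. Egln3 lost that call without young replicates 1, 2, 3 or 5, 12M replicate 3, 18M replicates 1, 3 or 5, or 24M replicates 1 to 4. Aldoc joined it without 18M replicate 4 or 24M replicate 5. The Egln3 change over the older libraries ran from 0.28 to 0.40 over all alternatives, with limma adjusted p from 0.0227 to 0.183, and at 24M from 0.40 to 0.52, with limma adjusted p from 0.00598 to 0.0704.

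The 24M change of Epas1 ran from -0.034 to 0.14 and that of Arnt from -0.18 to 0.16 with single libraries left out, so neither sign is stable. Epas1 was -0.034 without young replicate 1. Arnt turned positive without young replicates 2, 3 or 5 or 24M replicates 2 or 3.

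Libraries share only a replicate number. Over the 30 same-numbered pairs of different ages, deviations from the group means correlated from -0.303 to 0.159 with a median of 0.0077, and 3 of 20 libraries were closest to one of their own number. With the replicate block, Egln3 had a limma adjusted p of 0.0292 at 24M and 0.0794 over the older libraries, and 1 and 0 members were called. Rescaling moved the median change of all genes by less than 0.1 on the log2 scale. Counts of Pfkp, Gapdh, Bnip3 and Eno1 are limited by shared transcript ends, and Bnip3, Vegfa and Pgk1 by few reads.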
